A study of Arabidopsis thaliana with 5 samples.

Results

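Gibberellin is a plant growth hormone that is perceived by the soluble receptors GID1A, GID1B and GID1C. A receptor that has bound the hormone captures the DELLA proteins, a branch of the GRAS family of nuclear regulators, and the captured DELLA is tagged for destruction by an F-box protein complex. DELLA proteins restrain growth by holding transcription factors such as the PIF proteins off their targets, and in dark-grown seedlings they act on elongation and on the apical hook, a structure that also responds to ethylene. The 8 genes described here are the 5 Arabidopsis DELLA genes, GAI (AT1G14920), RGA1 (AT2G01570), RGL1 (AT1G66350), RGL2 (AT3G03450) and RGL3 (AT5G17490), and the receptor genes GID1A (AT3G05120), GID1B (AT3G63010) and GID1C (AT5G27320), out of 27432 nuclear protein-coding genes. The rule that lists them uses locus and known function and no measured value, and it was set with earlier results of these data known. A peak was assigned to a gene when at least 1 bp of it lay in the gene or in the 1000 bp on either side, which is called the window below.

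Chromatin immunoprecipitation sequencing mapped the sites of TREE1 tagged with green fluorescent protein. The series title couples TREE1 with EIN3, a transcription factor at the end of the ethylene pathway, as repressors that limit the growth of shoots. All samples came from 1 line that carried the tagged protein under the TREE1 promoter (written TREE1p::TREE1-GFP in the sample titles and pTREE1:TREE-GFP elsewhere in the labels), as shoots of seedlings grown in the dark for 3 days. There was 1 library after 4 h of hydrocarbon-free air and there were 2 after 4 h of the same air with 10 ppm ethylene, each made with an antibody to the tag. One input per treatment entered through the authors' peak calls only, so both ethylene lists share an input. With 1 air library no difference between treatments could be tested, and the values below describe these 3 libraries. After duplicate removal 9325092 tags were kept in air, 5884897 in ethylene replicate 1 and 9459860 in ethylene replicate 2, and the lists held 8602, 9156 and 9958 peaks. The shallowest library was thus an ethylene one. In the list headers the run names carry DAZ3L in place of TREE1, and the air run is marked there as replicate 2. The sample labels were followed here.

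TREE1-GFP peaks lay near 7 of the 8 genes in at least 1 library, against 55.3% of all coding genes. In air 5 of the 8 genes had a peak in the window, against 39.2% of coding genes. In ethylene replicate 1 there were 6 (background 40.7%) and in ethylene replicate 2 there were 7 (background 41.2%). GAI, RGL2, GID1B and GID1C had a peak in all 3 libraries, where the background was 25.6%. Both ethylene replicates had a peak at 6 genes (background 31.6%). RGL1 and GID1A had a peak in both ethylene replicates and none in air, a pattern found at 5.93% of coding genes. RGL3 had peaks in air and in ethylene replicate 2, and RGA1 had none in its window in any library. The members are 2082 to 2482 bp long, and among the 4237 coding genes of 2000 to 2500 bp the shares with a peak were higher than over all genes, at 43.7%, 44.5% and 46.5% in air and ethylene replicates 1 and 2. Of these genes 60.3% had a peak in at least 1 library, 29.2% in all 3 and 35.9% in both ethylene replicates. A peak in both ethylene replicates and none in air was found at 6.73% of them. With 8 genes, 1 gene more or less moves a share by 12.5 percentage points, and no test was made of the list.

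**Figure D1:**
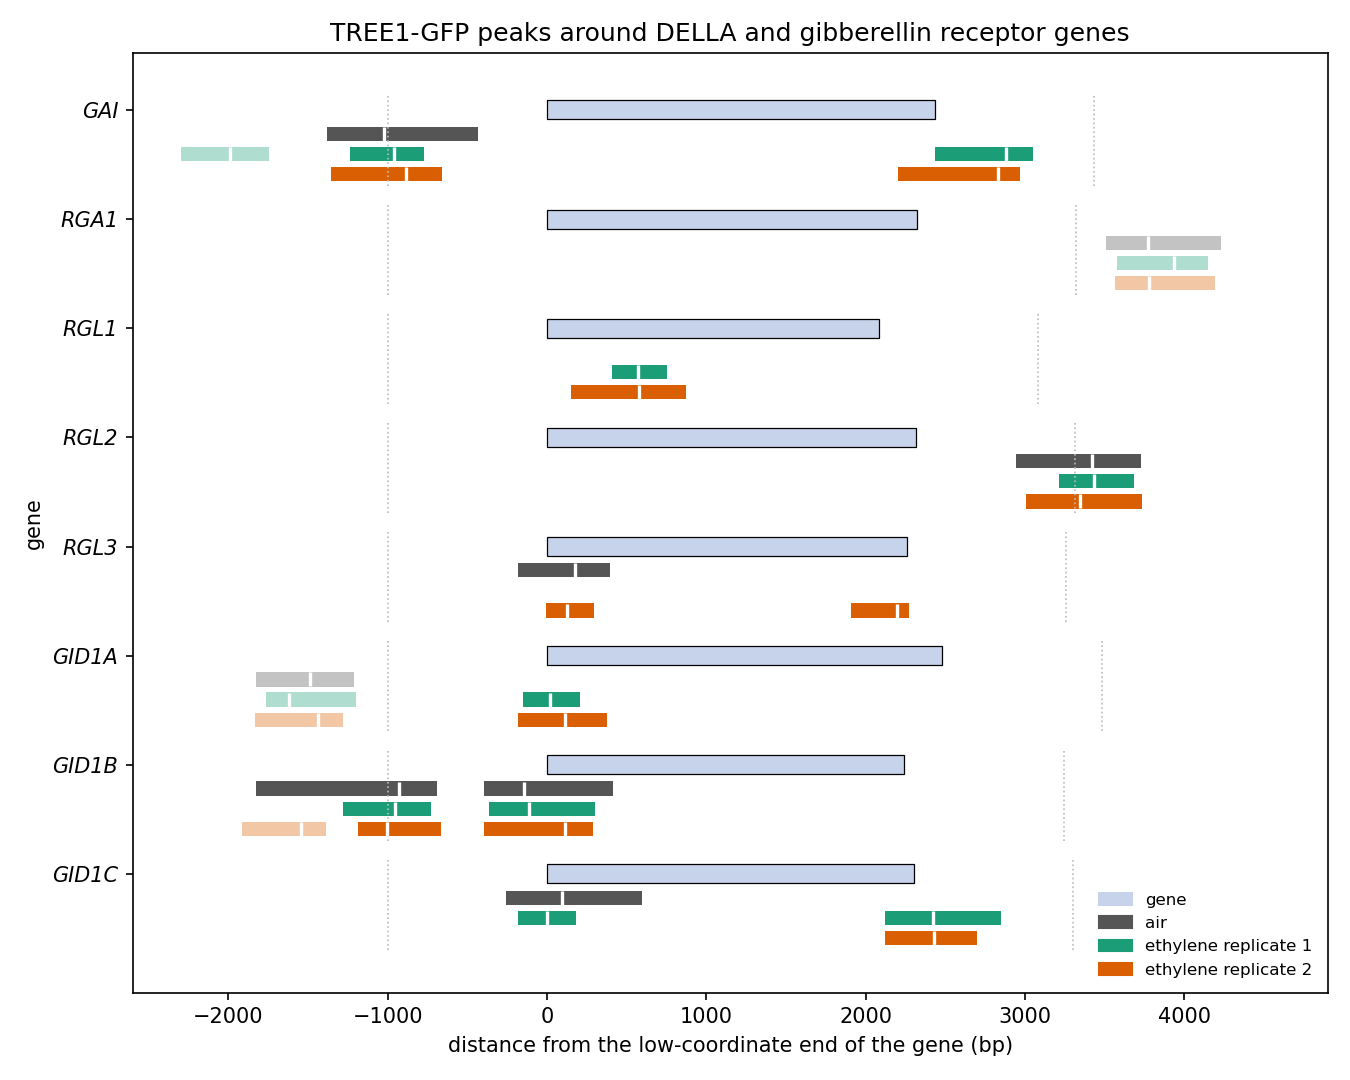
Peaks of the 3 libraries around each of the 8 genes, drawn to scale along the chromosome from the low-coordinate end of the gene (x axis, bp). Blue boxes are genes, coloured bars are peaks, white ticks are summits, dotted lines mark 1000 bp on either side, and pale bars are peaks within 2000 bp that lie outside the window. RGL1 and GID1A have no air peak in the window, and all 3 peaks beside RGA1 lie outside it.

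The 25 peaks in the windows merged into 11 sites, joining peaks that shared at least 1 bp. Of these sites, 4 held a peak of each library, 6 held peaks of 2 libraries and 1 held a peak of a single library. The gene table used gives no strand, so positions are stated from the end of the gene with the lower or the higher coordinate, not from the start of transcription. The summit lay inside the gene for 9 peaks and outside for 16. Inside were 2 of 6 peaks in air, 2 of 9 in ethylene replicate 1 and 5 of 10 in ethylene replicate 2. Among the gene and peak pairs of all coding genes the inside shares were 25.2%, 24.8% and 26.4%. Fold enrichment, as computed by the authors over the local background, is given below with the percentile of the peak within its own list, since depth and input differ between lists. The median fold of all peaks was 3.11 in air, 3.99 in ethylene replicate 1 and 3.39 in ethylene replicate 2. The authors' score is 10 times the negative log10 of the p-value, with a floor of 50 set by their calling threshold. To compare libraries of unequal depth, tags were also divided by peak length and kept tags (scaled density, in tags per kb and per 1000000 kept tags), and summit height by kept tags (scaled height, per 1000000 kept tags).

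Of the receptor genes, GID1B had 2 peaks in every library. GAI had 2 in both ethylene replicates, GID1C in ethylene replicate 1 and RGL3 in ethylene replicate 2. Per library, 2 or more peaks were thus found at 1 of the 8 genes in air and at 3 in each ethylene replicate. Over all coding genes, 8.32% had 2 or more peaks in air, 8.73% in ethylene replicate 1 and 9.81% in ethylene replicate 2. The inner GID1B site overlapped the low-coordinate end of the gene, on chromosome 3 from 23288847 to 23289656. Its tag counts were 172 in air, 102 in ethylene replicate 1 and 162 in ethylene replicate 2, or 0.213, 0.154 and 0.235 tags per bp of peak. Its folds of 3.22, 4.20 and 3.52 stood at percentiles 58.4, 60.9 and 58.3, within 3 points of each other. By score its percentiles were 57.6, 67.5 and 84.7, and by tag density 46.1, 53.2 and 75.2, so by these measures it ranked highest in ethylene replicate 2. The summit lay 144 bp outside the gene in air, 112 bp outside in ethylene replicate 1 and 115 bp inside in ethylene replicate 2. Summit heights, the tag pileup at the summit, were 33 tags in air, 22 in ethylene replicate 1 and 25 in ethylene replicate 2.

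The outer GID1B site had its summits 928 bp outside the same end in air, 957 bp in ethylene replicate 1 and 1003 bp in ethylene replicate 2. It held 258, 89 and 130 tags in air and ethylene replicates 1 and 2, in peaks of 1136, 553 and 518 bp. The air peak covered ground that ethylene replicate 2 split into a pair of peaks, the farther of which had 119 tags and a summit at 1544 bp and lay outside the window. Tag density was 0.227, 0.161 and 0.251 tags per bp, and summit height was 43, 23 and 31 tags. The scaled height in air, 4.61, was the highest of any site in the windows. The folds were 3.53, 3.95 and 3.90, at percentiles 76.2, 47.6 and 77.4, so by fold ethylene replicate 1 ranked lowest. By tag density the percentiles were 65.7, 65.1 and 86.4, so by that measure ethylene replicate 2 ranked above the others.

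GID1C also had a peak in each library, but no site of this gene held all 3. At its low-coordinate end, on chromosome 5 from 9628734 to 9629584, there was a peak in air with 181 tags and a peak in ethylene replicate 1 with 63 tags. The air summit lay 93 bp inside the gene and the ethylene summit 1 bp outside it. The densities were 0.213 and 0.173 tags per bp, the summit heights 32 and 25 tags, and the folds 2.84 (percentile 27.9) and 4.85 (percentile 82.8). Ethylene replicate 2 had no peak there. At the opposite end, from 9631109 to 9631839, the 2 ethylene replicates had peaks of 125 and 151 tags and air had none. These summits were 120 and 129 bp outside the gene, with densities of 0.171 and 0.263 tags per bp, heights of 24 and 29 tags and folds of 3.99 and 3.19 at percentiles 49.8 and 35.6. The peak of ethylene replicate 1 also reached the window of the neighbour AT5G27330. The gene-level call in all 3 libraries therefore joins different sites.

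GID1A was the receptor gene without an air peak in its window. A peak over its low-coordinate end, on chromosome 3 from 1430180 to 1430736, held 51 tags in ethylene replicate 1 and 105 in ethylene replicate 2. The densities were 0.142 and 0.189 tags per bp, the heights 20 tags in both, and the summits lay 16 and 112 bp inside the gene. Scores were 54.2 and 64.2, close to the calling floor of 50, and the folds of 3.93 and 2.80 stood at percentiles 46.5 and 10.6. A weaker air signal just under the calling threshold cannot be told apart from no signal with these lists. A further site lay outside the window and was present in all 3 libraries, on chromosome 3 from 1428530 to 1429165. Its summits were 1490 bp from the gene in air, 1620 bp in ethylene replicate 1 and 1436 bp in ethylene replicate 2, nearer to the neighbour AT3G05110. It held 128, 83 and 118 tags at 0.208, 0.147 and 0.214 tags per bp. With 2000 bp on either side GID1A would thus count as having a peak in every library.

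Among the DELLA genes, GAI had a site in all 3 libraries and a further site in the ethylene replicates. GAI and RGA1 are the members best known for restraining stem growth. The shared site lay outside the low-coordinate end, on chromosome 1 from 5147599 to 5148545, with summits at 1026 bp in air, 958 bp in ethylene replicate 1 and 885 bp in ethylene replicate 2. Tags numbered 189, 71 and 177, at 0.200, 0.154 and 0.254 tags per bp, and summit heights were 26, 18 and 30 tags. The folds were 2.30 in air, 3.16 in ethylene replicate 1 and 3.99 in ethylene replicate 2. Air and ethylene replicate 1 stood near the bottom of their lists, at percentiles 1.45 and 8.40, and ethylene replicate 2 stood at 80.4. The ethylene replicates thus differed more from each other in rank than ethylene replicate 1 differed from air. The scores followed the same order, at 52.2, 66.0 and 182.

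The second GAI site lay at the high-coordinate end, from 5151183 to 5152035, and was called in the 2 ethylene replicates with 76 and 149 tags. The densities were 0.123 and 0.193 tags per bp, the heights 17 and 24 tags, and the summits 451 and 401 bp outside the gene. In ethylene replicate 1 this summit was nearer to the neighbour AT1G14930, at 397 bp, and in ethylene replicate 2 it was nearer to GAI. Folds of 3.11 and 3.08 at percentiles 6.64 and 27.7 placed it low in both lists. One more peak of ethylene replicate 1, with 69 tags and a summit at 1992 bp on the low-coordinate side, fell outside the window.

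RGL1 had a peak inside the gene in both ethylene replicates, and no air peak within 2000 bp of the gene. The site lay on chromosome 1 from 24748253 to 24748974, and the summits, 571 and 575 bp inside the low-coordinate end, differed by 4 bp. Ethylene replicate 1 held 48 tags there and ethylene replicate 2 held 161, at 0.139 and 0.223 tags per bp, with summit heights of 17 and 24 tags. The scaled density was the same in both, at 23.6. The folds were 4.19 and 4.10, at percentiles 60.4 and 83.5. The score of 214 in ethylene replicate 2 was the highest of the 25 peaks, while that of ethylene replicate 1 was 72.5. Summits inside the gene made up 24.8% of the gene and peak pairs of all coding genes in ethylene replicate 1 and 26.4% in ethylene replicate 2.

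RGL2 encodes a DELLA protein best known as a repressor of seed germination. Its site was found in all 3 libraries, on chromosome 3 from 822282 to 823071. Tags numbered 200 in air, 78 in ethylene replicate 1 and 173 in ethylene replicate 2, with densities of 0.254, 0.165 and 0.238 tags per bp and heights of 34, 23 and 24 tags. The folds were 3.16, 4.86 and 3.55, at percentiles 54.1, 83.1 and 60.3, and the scores of 154, 121 and 195 made it the only member with a score of at least 100 in every library. The summits lay 1109, 1118 and 1031 bp beyond the high-coordinate end of RGL2, and 135, 126 and 213 bp from the neighbour AT3G03460. In each library the nearest coding gene was therefore AT3G03460, and RGL2 was counted because the edge of the peak reached its window.

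RGL3 encodes a DELLA protein linked to jasmonate responses and defence. A site over its low-coordinate end, on chromosome 5 from 5763810 to 5764385, was called in air with 121 tags and in ethylene replicate 2 with 62 tags, and not in ethylene replicate 1. The densities were alike, at 0.210 and 0.207 tags per bp, as were the summit heights of 32 and 29 tags, and the summits lay 174 and 124 bp inside the gene. The folds were 3.17 at percentile 54.9 and 4.43 at percentile 90.0. Both peaks also reached the window of the neighbour PC1. A second peak of 69 tags, called in ethylene replicate 2 alone, had its summit 60 bp inside the high-coordinate end. It had 0.188 tags per bp, a height of 19 tags and a fold of 3.19 at percentile 35.6. The library with no RGL3 peak was the shallowest of the 3, and the part of depth in this was not tested.

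RGA1 had no peak in the window. The site with the highest fold percentile near any of the 8 genes lay just beyond it. That site, on chromosome 2 from 258754 to 259477, began 1186 bp past the high-coordinate end in air, 1257 bp in ethylene replicate 1 and 1248 bp in ethylene replicate 2. It held 219, 120 and 184 tags at 0.302, 0.209 and 0.296 tags per bp, with summit heights of 52, 30 and 37 tags. Its folds of 4.69, 5.09 and 4.53 stood at percentiles 96.6, 87.3 and 91.3. In each library this was a higher percentile than any peak inside the windows reached, where the highest were 76.2 for GID1B in air, 83.1 for RGL2 in ethylene replicate 1 and 90.0 for RGL3 in ethylene replicate 2. RGA1 was the nearest coding gene, with summits at 1453, 1616 and 1460 bp. In all 3 libraries the summit fell within the record of a long noncoding RNA, AT2G04015.

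**Figure D2:**
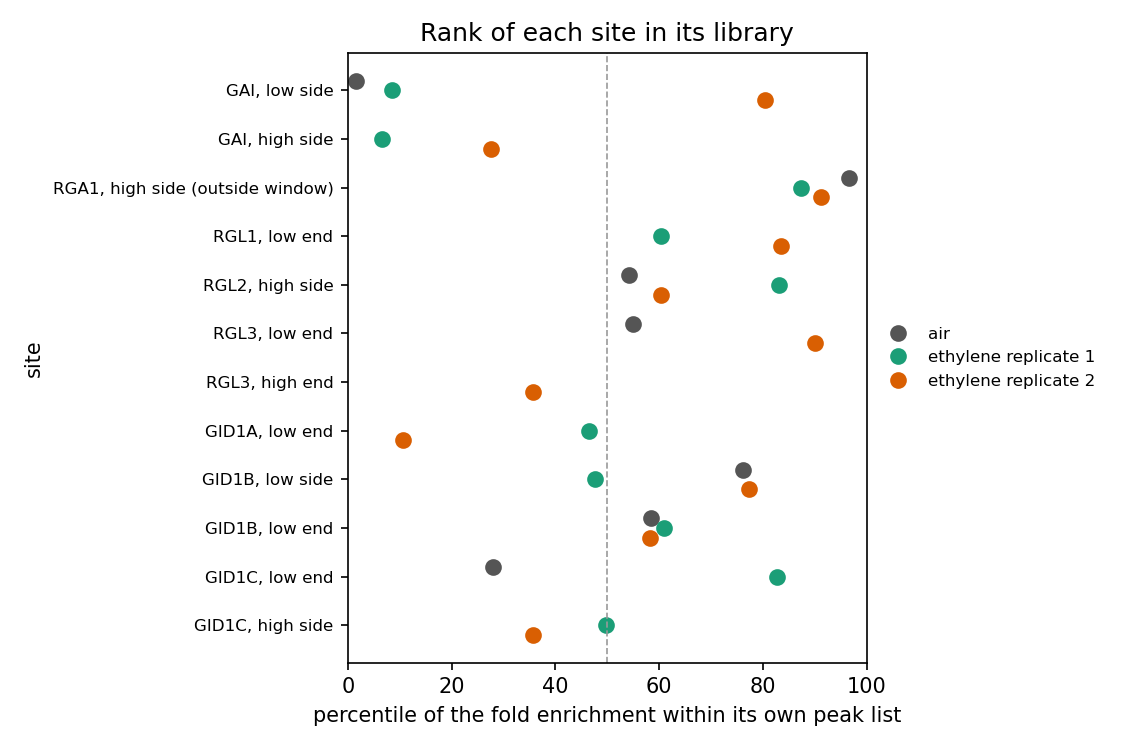
Percentile of the authors' fold enrichment within its own peak list (x axis) for the 11 sites in the windows and for the site beyond RGA1 (y axis), 1 point per library with a peak, shifted slightly in height by library. The dashed line marks the middle of a list. The RGA1 site lies between 87.3 and 96.6, and the GAI low-side site spreads from 1.45 to 80.4.

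By fold, the peaks inside the windows were of middling strength. The median percentile of fold was 54.5 for the 6 air peaks and 49.8 for the 9 peaks of ethylene replicate 1. For the 10 peaks of ethylene replicate 2 it was 59.3, where 50 is the middle of each list. The median percentile of tag density was 46.2, 53.2 and 68.3, highest in ethylene replicate 2. A score of at least 100 was reached by 1 of 6, 3 of 9 and 6 of 10 peaks, against 35.3%, 38.9% and 40.4% of all peaks in air and ethylene replicates 1 and 2. Scaled density ranged from 19.9 at the high-coordinate end of RGL3 in ethylene replicate 2 to 29.4 at the low-coordinate end of GID1C in ethylene replicate 1. The medians of all peaks were 23.1, 25.9 and 22.7. Across the 10 sites with peaks in more than 1 library, the highest library exceeded the lowest by 1.00 to 1.29 times. The exact Poisson 95% intervals of the libraries overlapped at 10 of these 10 sites. These intervals cover counting error only, and their overlap is a description and no test of a difference.

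At the 4 sites held by all libraries the air value could be set beside the spread of the ethylene pair. The scaled density in air was below both ethylene values at the GAI site, 21.4 against 26.1 and 26.8, and at both GID1B sites. At the inner GID1B site the scaled densities were 22.8 in air against 26.2 and 24.9, and at the outer one 24.4 against 27.3 and 26.5. At RGL2 the scaled density of 27.3 in air fell between 28.1 and 25.2. Scaled height gave another order. Air was below both ethylene replicates at GAI (2.79 against 3.06 and 3.17), above both at the outer GID1B site (4.61 against 3.91 and 3.28), and between them at RGL2 and at the inner GID1B site. The median scaled height of all peaks was 3.43 in air, 3.40 in ethylene replicate 1 and 2.54 in ethylene replicate 2, and the authors' fragment sizes were 79, 71 and 62 bp. Peaks called in different libraries have different widths, which enter their density. At each of these 4 sites the air peak was the widest. Peak tags divided by kept tags alone, on the scale of the heights, were highest in air at all 4. They were 20.3 against 12.1 and 18.7 at GAI, and 21.4 against 13.3 and 18.3 at RGL2. At the inner GID1B site they were 18.4 against 17.3 and 17.1. At the outer one they were 27.7 against 15.1 and 13.7, counting window peaks only. The ethylene replicate 2 peak just outside the window, which overlapped this air peak, held a further 12.6. The place of air thus depended on the measure.

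**Figure D3:**
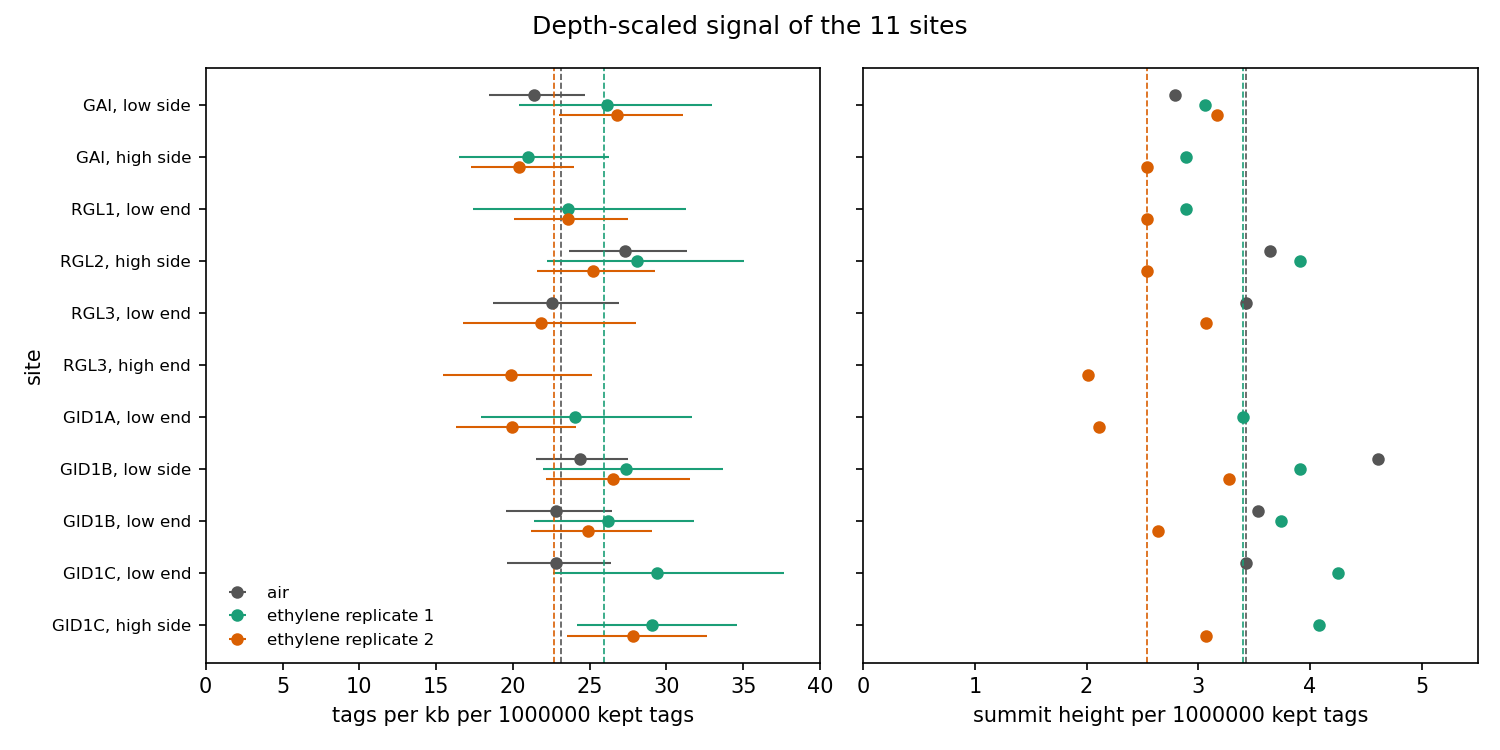
Scaled density in tags per kb per 1000000 kept tags (left) and scaled summit height per 1000000 kept tags (right) at the 11 sites in the windows (y axis), 1 point per library with a peak; bars on the left are exact Poisson 95% intervals and dashed lines are the medians of all peaks of a library. All densities lie between 19.9 and 29.4, and the intervals of a site overlap.

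The partners of the DELLA proteins were counted next, from a list of 19 genes whose products modify, degrade or bind them or act below them. Peaks were found at 10 of 19 in air, 10 in ethylene replicate 1 and 14 in ethylene replicate 2, where the backgrounds are 39.2%, 40.7% and 41.2%, and at 7 in all 3 (background 25.6%). MGP, a zinc finger gene also known as IDD3, had the strongest peak of the list, at 6.70-fold in air (rank 14 of 8602), 6.35-fold in ethylene replicate 1 and 5.43-fold in ethylene replicate 2. Its percentiles were 99.8, 96.4 and 96.8. SEC encodes the enzyme that attaches N-acetylglucosamine to DELLA proteins, and it had 1 peak in air and 2 in each ethylene replicate. The fold given for each library was 2.59, 5.11 and 3.70, at percentiles 10.7, 87.7 and 68.7. BRG2 and BRG3 encode RING proteins related to BOI, which binds DELLA proteins, with peaks of 3.97, 4.32 and 3.88-fold and of 4.27, 3.79 and 4.98-fold.

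A peak in both ethylene replicates and none in air was seen at 3 of the 19 partners, against 5.93% of coding genes. They were SLY1, the F-box gene whose product marks DELLA proteins for destruction, at 3.85 and 3.36-fold, SCL3, a GRAS gene that acts against the DELLA proteins, at 4.18 and 2.68-fold, and XERICO, a RING gene activated by DELLA proteins, at 3.65 and 2.88-fold. In ethylene replicate 1 these stood at percentiles 42.3, 59.9 and 31.1, and in ethylene replicate 2 at 47.9, 5.88 and 14.7, and 5 of these 6 values lay below the middle of their lists. SLY2, the close relative of SLY1, had no peak in any library. SPY, whose product attaches fucose to DELLA proteins, had a peak in air and in ethylene replicate 2. SLY2 and SPY were named after their calls were seen.

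GASA genes encode small secreted peptides, several of them raised by gibberellin. Of 14 loci listed, 7 carry no GASA name in the gene table and were listed from general knowledge. Peaks were found at 8 in air (background 39.2%), 7 in ethylene replicate 1 (40.7%) and 7 in ethylene replicate 2 (41.2%), and 6 had one in all 3 (25.6%). GASA14 had folds of 4.02, 6.29 and 4.20, GASA4 of 4.31, 4.63 and 4.26, and GASA5 of 3.05, 3.96 and 3.62 in air and ethylene replicates 1 and 2. The percentiles were 90.0, 96.2 and 86.0 for GASA14 and 93.9, 77.2 and 87.2 for GASA4. They were 45.4, 48.2 and 64.4 for GASA5. The remaining locus named by the rule, AT2G18420, had 3.19, 4.26 and 3.56, at percentiles 56.3, 64.1 and 61.0. A peak in both ethylene replicates and none in air was seen at 0 of the 14, and with a background of 5.93% a list of this size would hold few such genes in any case.

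The GRAS genes outside the DELLA branch were the closest family for comparison. Of 25 listed loci, 9 carry no GRAS gene name in the gene table and were listed from general knowledge. AT5G66770 and AT3G46600 are among these. Peaks were found at 11 (44.0%) in air, 13 (52.0%) in ethylene replicate 1, 13 in ethylene replicate 2 and 8 (32.0%) in all libraries. The shares over all coding genes were 39.2%, 40.7%, 41.2% and 25.6%. PAT1, a gene of phytochrome A signalling, had folds of 3.53, 4.23 and 5.36, and SCL14 had 3.32, 3.76 and 3.18. The percentiles were 76.2, 62.6 and 96.7 for PAT1 and 65.1, 37.5 and 34.8 for SCL14. The loci AT5G66770 (4.55, 6.44 and 4.04-fold) and AT3G46600 (3.17, 5.32 and 2.93-fold) completed those named. Their percentiles were 95.7, 96.6 and 81.6 for AT5G66770 and 54.9, 90.3 and 17.7 for AT3G46600. HAM3, a gene of shoot meristem maintenance, had folds of 4.36 and 3.57 at percentiles 67.9 and 61.5. It shared with SCL3 the pattern of peaks in both ethylene replicates and none in air. These are 2 of the 25, or 8.0%, where the background is 5.93%. SCL3 stands in both lists.

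**Figure D4:**
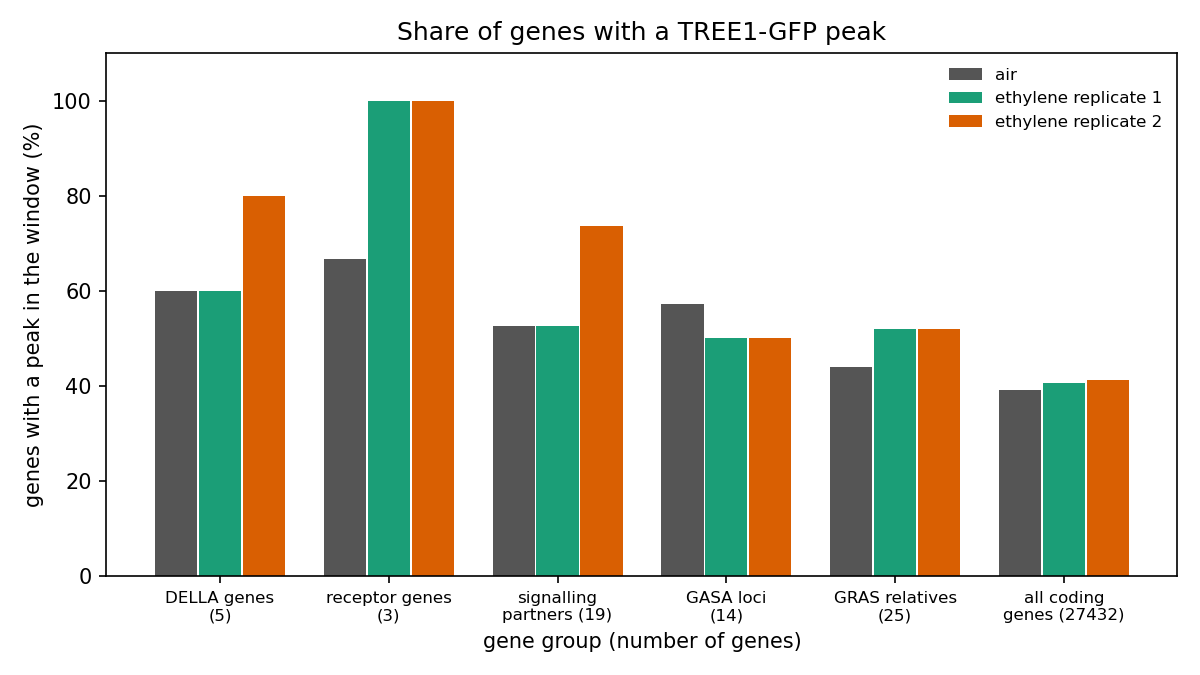
Share of genes with at least 1 peak in the gene or the 1000 bp on either side (y axis, percent) in each library, for the DELLA genes, the receptor genes, the 3 lists and all coding genes (x axis, with the number of genes). In the groups of 5 and 3 genes each gene is a large step, and all coding genes stand at 39.2 to 41.2%.

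The gene most like RGL2, the member with the highest mean percentile of tag density over the 3 libraries (78.9), was its neighbour AT3G03460, which shares its peaks. Of the 7036 genes with a peak in all libraries, the next were MYB27 and UMAMIT6, each at a distance of 2.18 percentile points. Their densities were at percentiles 89.7, 72.2 and 78.3 in air and ethylene replicates 1 and 2, against 87.8, 71.5 and 77.4 for RGL2. MYB27 (AT3G53200) and UMAMIT6 (AT3G53210) had identical values and may share their peaks. This likeness rests on 3 libraries and is a description.

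How peaks were assigned set several of these calls. When the summit itself had to lie in the window, GAI and RGL2 lost their air call, which left 3 genes with an air peak (background 36.2%) and 2 with peaks in all 3 libraries (23.3%). GAI then joined RGL1 and GID1A as a gene with peaks in both ethylene replicates and none in air, which made 3 (6.07%). The gene body alone also left 3 in air (29.6%) and 2 in all libraries (16.9%), with 4 in ethylene replicate 1 (29.0%) and 6 in ethylene replicate 2 (29.3%). A score of at least 100 left RGL2 as the 1 member with an air peak (16.1%), 3 members in ethylene replicate 1 (18.4%) and 5 in ethylene replicate 2 (19.2%). Under that rule 3 members had peaks in both ethylene replicates (12.3%) and 1 had them in all libraries (8.42%). GID1B and GID1C, in place of RGL1 and GID1A, were then the members with peaks in both ethylene replicates and none in air (3.87%). With 2000 bp on either side RGL1 alone of the 8 genes kept that pattern, against 6.78% of coding genes.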

How the data were processed

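The libraries were 1 air and 2 ethylene immunoprecipitates and, through the authors' calls alone, 2 inputs. BWA and the TAIR10 build are named in the submitters' processing notes. Per the file headers, each immunoprecipitate was called with MACS 1.4.2 against its treatment's input, at a p-value cutoff of 1e-05 with 1 tag kept per position. Tags of a peak are deposited counts without normalization. The deposited score is 10 times the negative log10 of the p-value, and the deposited fold is a ratio to the local background. The FDR is deposited in percent and reached at most 0.59%. Summit height is a deposited signal, the tag pileup at the summit.

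Scaled values, ranks, merged sites and gene calls were computed with Python 3.11.15 and its packages pandas 2.3.3, numpy 2.4.6, scipy 1.17.1 and, for figures, matplotlib 3.10.9. Duplicates made up 48.6 to 53.7% of the tags. Exact Poisson 95% intervals cover counting error only, and hold no variation between libraries or cultures. Whether the ethylene replicates are separate cultures is not given in the labels, so their spread may be technical. Gene names and positions came from a TAIR10.1 table with no strand, and none of its positions is printed. As a check of that table, summits were displaced in 100 bp steps to 2000 bp either way: for 15 of 15 combinations of library and chromosome, coding genes held the smallest share of summits at 0 displacement. On simulated data the gene call found 200 of 200 planted genes, with 0 stray calls, among 27432. The planted genes were chosen so that their windows did not overlap those of neighbouring coding genes. This checks the code only, and cannot show how peaks shared by neighbouring windows are assigned. Sequence was not used here, so the planned search for 4 motifs was not run.

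The members, lists and rules were chosen with earlier results of these data known. Named genes were all members, plus up to 4 of each list with peaks in all libraries and up to 4 with peaks in both ethylene replicates and none in air, by summed fold rank. Alternatives changed the window, the peak threshold, the overlap rule, the list length and the ethylene replicates used.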

Additional observations from a re-analysis of the deposited data

How the results depend on the processing

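Of 62 recalculated member counts, 53 stayed within 1.5 times the main count, some of them by construction. A limit of 5% on the FDR removed no peak, since the FDR reached at most 0.59%. Cutting the lists to equal length left air as it was, since the air list was the shortest. A count could also stay while its genes changed, as when GID1B and GID1C replaced RGL1 and GID1A at a score of at least 100. The gene body alone gave 3 members with a peak in air (29.6% of all coding genes) and 2 in all 3 libraries (16.9%). Requiring the summit in the window gave 3 (36.2%) and 2 (23.3%) as well, and 3 in both ethylene replicates and none in air (6.07%). A score of at least 100 gave 1 in air (16.1%), 3 in ethylene replicate 1 (18.4%), 1 in all libraries (8.42%) and 3 in both ethylene replicates (12.3%). With 2000 bp on either side, 1 member, RGL1, had peaks in both ethylene replicates and none in air (6.78%). Counting a peak only for its nearest coding gene, and counting shared sites in place of genes, were chosen after seeing the data. The nearest-gene rule gave 4 members in air (25.5%), 5 in ethylene replicate 1 (27.1%) and 6 in ethylene replicate 2 (28.0%). It gave 3 in all libraries (14.3%). By shared sites, 3 members had a site in all 3 libraries and 6 had one in both ethylene replicates. Without ethylene replicate 1 or 2 the count in all remaining libraries was 4 to 5 (29.9 to 30.1% of all coding genes, against 25.6% with 3 libraries), in the remaining ethylene replicate 6 to 7 (40.7 to 41.2%, against 31.6% for both), and in ethylene without air 2 to 2. The share of all coding genes with that last pattern rose from 5.93% to 10.8 and 11.2%, so the same count is nearer to it. No paired analysis was possible because no result comes from a test and the single air library carries no replicate number in the labels.

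For the lists, the gene body alone gave 4, 4 and 7 signalling partners and 2, 2 and 4 GASA loci with a peak in air and ethylene replicates 1 and 2, and 8 GRAS relatives in ethylene replicate 1. Over all coding genes the gene body alone gave 29.6%, 29.0% and 29.3%, down from 39.2%, 40.7% and 41.2%. A score of at least 100 gave 8 partners in air and 3 and 6 in ethylene replicates 1 and 2, so that air then had the most, and 2, 5 and 6 GRAS relatives in the 3 libraries. The shares over all coding genes under that rule were 16.1%, 18.4% and 19.2%. The highest percentile of a member peak in air was 76.2 by fold and 91.5 by summit height, both at GID1B. By tags per bp it was 87.8 and by score 87.1, both at RGL2. In ethylene replicate 1 it was 83.1 by fold, at RGL2, and 73.6 by score, at GID1C. The cause of these changes was not tested beyond the smaller windows and shorter lists that the alternatives make by construction. Ethylene replicate 1 had the fewest kept tags, and the part of depth in its counts was not tested.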
